A study of Mus musculus with 12 samples.

Results

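The 10 genes described here encode receptors that couple nutrients, hormones and foreign compounds to liver metabolism, together with the reductase that powers the enzymes they control. They are Nr1i3 (the constitutive androstane receptor, CAR), Nr1i2 (the pregnane X receptor, PXR), Rxra and Rxrb (retinoid X receptors), Ahr (the aryl hydrocarbon receptor), Thra and Thrb (thyroid hormone receptors), Esrra (the estrogen-related receptor ERRα), Nr2f6 (an orphan receptor of the COUP-TF family) and Por (cytochrome P450 oxidoreductase). They were taken as a list of names, with no threshold on values, and all 10 were found among the 17432 genes of the table. Liver RNA was sequenced from 12 mice, 6 in the Sedentary group and 6 in the Exercise group. All were male WT mice of the C57BL/6J strain, 8 to 10 weeks old, whose feeding had been synchronized for 3 days. The Exercise group ran on a treadmill at 14 m/min for a single bout of 3 hours after feeding, and the Sedentary group did not run that bout. One time point was sampled, and whole liver was used, so that fewer cells of a type and less RNA per cell cannot be told apart.

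CAR and PXR are nuclear receptors of the hepatocyte that bind DNA as partners of RXR and induce cytochrome P450 enzymes, transferases and transporters when drugs, bile acids or steroids reach the liver. CAR waits in the cytoplasm with heat shock protein 90 and moves to the nucleus on activation, also without a ligand, and fasting and energy stress are known to act on it. RXR is the shared partner of many receptors, including the thyroid hormone receptors, PPARα and the bile acid receptor FXR. AHR is no nuclear receptor but a ligand-activated factor of another family that pairs with ARNT. POR passes electrons from NADPH to microsomal P450 enzymes, to squalene epoxidase and to heme oxygenase.

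Promoter windows of 250 bases before an annotated start were taken from RefSeq (GRCm38.p6), 11 windows for 8 members, with none for Ahr and Thra. The members with the smallest p in the comparison of the groups (Por, Rxrb, Nr1i3 and Thrb) are shown, with Nr1i2 as the closest relative of Nr1i3. Sequences run 5′ to 3′ on the strand of the gene, and capitals mark matches, on either strand, to the nuclear receptor, glucocorticoid receptor, E-box and forkhead motifs that are spelled out after the sequences. The windows lie at chr1:171213720-171213969 (Nr1i3, plus strand), chr16:38294825-38295074 (Nr1i2, minus strand) and chr5:135688895-135689144 (Por, plus strand). Those of Rxrb and Thrb lie at chr17:34031562-34031811 (Rxrb, plus strand), chr14:17660710-17660959 (Thrb, plus strand) and chr14:17981394-17981643 (a start further inside Thrb). That of Por also lies before a start inside the gene, whose annotation begins at 135670033.
Nr1i3: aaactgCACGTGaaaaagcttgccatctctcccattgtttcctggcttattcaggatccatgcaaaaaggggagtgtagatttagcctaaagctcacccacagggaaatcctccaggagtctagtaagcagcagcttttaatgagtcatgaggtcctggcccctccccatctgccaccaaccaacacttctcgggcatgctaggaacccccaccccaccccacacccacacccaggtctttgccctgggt
Nr1i2: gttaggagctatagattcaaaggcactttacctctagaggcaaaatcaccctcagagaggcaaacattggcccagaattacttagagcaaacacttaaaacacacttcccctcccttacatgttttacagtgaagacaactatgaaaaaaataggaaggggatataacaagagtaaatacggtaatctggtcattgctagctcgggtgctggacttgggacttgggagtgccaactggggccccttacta
Por: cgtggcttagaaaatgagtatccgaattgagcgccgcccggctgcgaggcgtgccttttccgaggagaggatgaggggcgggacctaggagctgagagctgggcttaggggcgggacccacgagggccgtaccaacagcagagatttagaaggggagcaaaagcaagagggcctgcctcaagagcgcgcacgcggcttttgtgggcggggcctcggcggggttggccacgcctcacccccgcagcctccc
Rxrb: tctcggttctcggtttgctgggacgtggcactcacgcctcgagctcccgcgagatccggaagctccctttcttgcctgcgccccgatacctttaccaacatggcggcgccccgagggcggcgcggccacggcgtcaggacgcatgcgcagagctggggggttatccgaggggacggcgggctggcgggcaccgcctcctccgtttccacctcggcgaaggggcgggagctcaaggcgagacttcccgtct
Thrb: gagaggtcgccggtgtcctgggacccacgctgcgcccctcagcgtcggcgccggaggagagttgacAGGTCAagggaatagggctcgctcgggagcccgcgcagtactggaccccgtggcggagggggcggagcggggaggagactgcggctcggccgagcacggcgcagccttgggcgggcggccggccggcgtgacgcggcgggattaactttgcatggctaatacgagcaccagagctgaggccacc
Thrb, inner start: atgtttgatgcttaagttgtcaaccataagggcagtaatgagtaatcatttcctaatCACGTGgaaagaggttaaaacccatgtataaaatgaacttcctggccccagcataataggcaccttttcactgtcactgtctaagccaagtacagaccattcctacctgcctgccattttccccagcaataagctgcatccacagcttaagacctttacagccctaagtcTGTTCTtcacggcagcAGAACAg

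Most of these windows are rich in G and C, while those of the related xenobiotic receptors and the inner start of Thrb are near or below the median. GC content was 44.0% in the window of Nr1i2 and in the inner window of Thrb, and 53.2% in that of Nr1i3, beside a median of 52.4% over 32851 windows of the same length. It was 65.6% for Por, 69.2% for the first window of Rxrb and 82.4% for Nr2f6. The GC box GGGCGG, present in 32.7% of all windows, was found for 6 of the 8 members with a window (Rxra, Rxrb, Por, Thrb, Esrra and Nr2f6) and not in the windows of Nr1i2 and Nr1i3. The half-site AGGTCA, which nuclear receptors bind, is in 14% of all windows and was found in windows of Rxra and Thrb. AGAACA, the half-site of the glucocorticoid receptor (16.1% of all windows), matched the inner window of Thrb on both strands, 7 and 23 bases before the start. The E-box CACGTG (6.02%) lay 244 bases before the start of Nr1i3 and 193 bases before the inner start of Thrb. The forkhead motif GTAAACA (3.17%) was found 59 bases before the second start of Rxrb, and TTGCNNAA, the C/EBP motif (9.56%), in no member's window. The palindrome CACGTG was counted once, and overlapping matches were found only among GC boxes. These are matches of letters in a short window and no evidence of binding.

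After exercise, 6 of the 10 genes changed. Por, Rxrb, Thrb and Ahr were higher and Nr1i3 and Nr2f6 were lower (edgeR's quasi-likelihood F test, adjusted p under 0.05 by the Benjamini-Hochberg method over 12344 genes). The background is high, since 42.4% of all genes tested passed the same threshold, 21.1% higher and 21.3% lower. In 4 members (Por, Rxrb, Thrb and Nr1i3) no Sedentary and Exercise values in CPM overlapped, which was so for 22.3% of all genes tested. One member, Por, changed at least 2-fold, as did 3.94% of all genes tested. Rxra, Nr1i2, Thra and Esrra did not pass, and the 95% intervals of their log2 fold changes lay between -0.28 and 0.23.

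**Figure D1:**
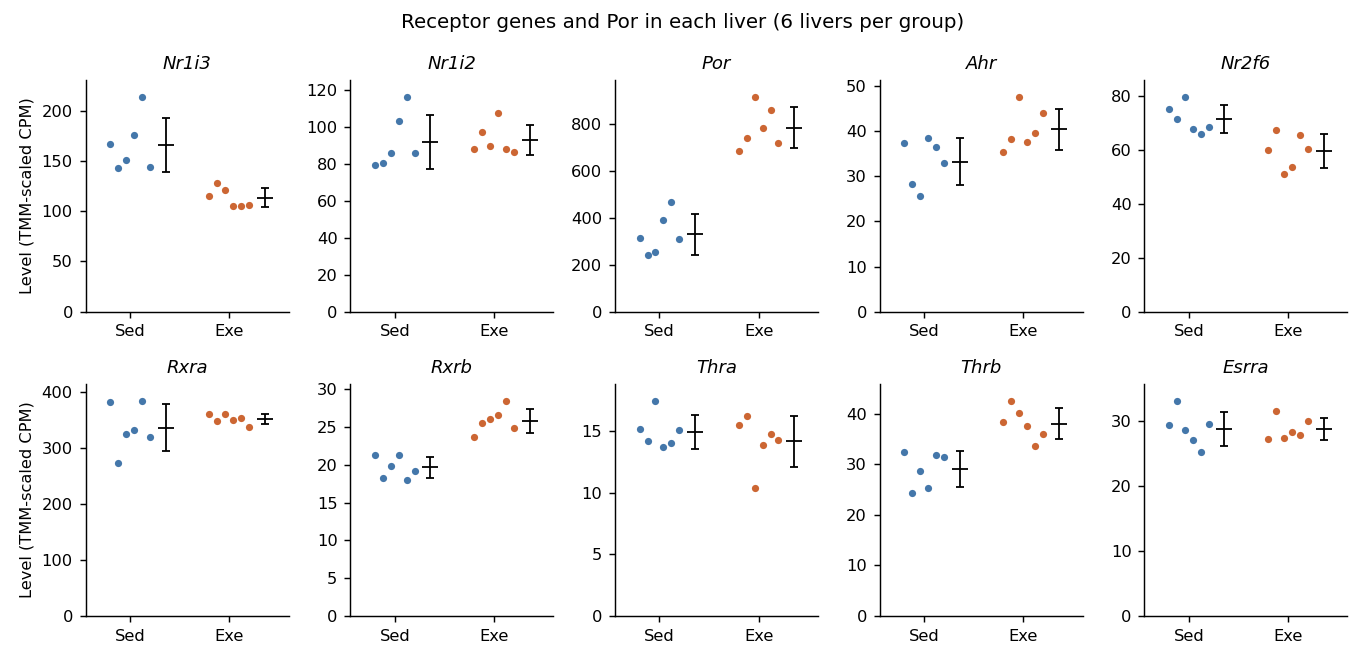
Level of each gene in each liver, in CPM scaled by TMM (vertical axes start at 0), for Sedentary (Sed, blue) and Exercise (Exe, orange). Points are single livers, and the bar beside them is the mean with its SD (n = 6). The 2 groups are apart in Por, Rxrb, Thrb and Nr1i3 and overlap in the other 6 genes.

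Depth was even, with total counts of 18745379 to 19324461 per library, and all 10 genes were counted well in each liver, from 178.71 counts at the lowest (Thra) to 16153 at the highest (Por). Levels are given below as TMM-scaled CPM, the count relative to the library size, which compare livers for 1 gene. Genes were compared with each other by FPKM, the authors' value per transcript length. On the FPKM scale the order in Sedentary livers was Por (138 ± 31.8, SD, n = 6), Nr1i3 (119.8 ± 14.9), Rxra (73.1 ± 7.74), Nr1i2 (40.3 ± 5.08), Nr2f6 (33.3 ± 2.98), Esrra (14.5 ± 2.02), Rxrb (8.36 ± 0.751), Ahr (6.35 ± 0.970), Thrb (4.51 ± 0.545) and Thra (4.28 ± 0.354). Values of the neighbours Por and Nr1i3, Nr1i2 and Nr2f6, Rxrb and Ahr, Ahr and Thrb, and Thrb and Thra overlapped. After exercise the order of the means was kept, but Por stood far above the rest at 307 ± 30.7 FPKM, while Nr1i3 (75.5 ± 6.65) overlapped Rxra (71.8 ± 2.40). The other neighbours that overlapped were Esrra and Rxrb, and Thrb and Thra.

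CAR and PXR, the xenobiotic receptors, parted after exercise. Nr1i3 (gene ID 12355, chr1:171213970-171220701 on GRCm38, plus strand) ranged from 143 to 214 CPM in Sedentary livers with a median of 159, and from 105 to 128 CPM in Exercise livers with a median of 110.4. Every Exercise liver was below every Sedentary liver. The mean fell from 166 ± 26.9 to 113 ± 9.51 CPM (SD, n = 6), that is by 31.7%, with a log2 fold change of -0.55 (SE 0.090, edgeR adjusted p = 0.000123). The exact permutation test over all 924 relabellings gave p = 0.00216 (two-sided), the smallest p it can give. Nr1i2 (gene ID 18171, chr16:38248323-38294824, minus strand) ranged from 79.3 to 117 CPM (median 86.2) in Sedentary livers and from 86.5 to 108 CPM (median 89.2) in Exercise livers. Its groups overlapped widely. The means were 92.1 ± 14.7 and 93.1 ± 8.13 CPM (SD, n = 6), the log2 fold change was 0.016 (95% interval -0.18 to 0.22), and edgeR's adjusted p was 0.909.

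Within each liver, the FPKM ratio of Nr1i3 to Nr1i2 was lower after exercise. It ran from 2.74 to 3.49 in Sedentary livers and from 1.59 to 2.13 in Exercise livers, with no overlap. The mean ratio went from 2.98 ± 0.265 to 1.96 ± 0.202 (SD, n = 6), and the difference on the log2 scale was -0.61 (two-sided exact permutation p = 0.00216, 0.00649 after Benjamini-Hochberg adjustment over the 3 ratios tested). The annotation places Tomm40l, a mitochondrial import gene, on the opposite strand over 3304 exonic bases of Nr1i3. Tomm40l had a log2 fold change of -0.21 (edgeR adjusted p = 0.0752). Whether reads were counted by strand is not given in the sources used here, so reads of the 2 genes cannot be told apart where they overlap. Counts of Nr1i3 were not whole numbers in 12 of 12 libraries, as in counts that are divided by an estimate.

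Por, which serves the P450 enzymes under CAR and PXR, had the largest change of the 10 genes. Por (gene ID 18984, chr5:135670033-135735326, plus strand) ranged from 240.4 to 469.7 CPM in Sedentary livers with a median of 313. It ranged from 687 to 915 CPM in Exercise livers with a median of 762, so that the groups stood well apart. The mean rose 2.37-fold, from 330.3 ± 87.2 to 784 ± 88.1 CPM (SD, n = 6), with a log2 fold change of 1.25 (SE 0.15, edgeR adjusted p = 3.34e-05). The exact permutation p was 0.00216. The spread of Sedentary livers, with a coefficient of variation of 26.4%, was the widest of the 10 genes, and Sedentary replicate 5 was highest not only in Por but also in Nr1i3, Nr1i2 and Rxra. Without that liver the log2 fold change of Por was 1.38, the high end of a range from 1.17 when each liver was left out in turn.

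The aryl hydrocarbon receptor was slightly higher after exercise, and this call was fragile. Ahr (gene ID 11622, chr12:35497974-35535038, minus strand) ranged from 25.7 to 38.4 CPM (median 34.7) in Sedentary livers and from 35.3 to 47.6 CPM (median 39.0) in Exercise livers, with overlap. The means were 33.2 ± 5.20 and 40.4 ± 4.56 CPM (SD, n = 6), and the log2 fold change was 0.28 (SE 0.099, edgeR adjusted p = 0.030, exact permutation p = 0.0325). It failed the threshold in 5 of 12 fits with a liver omitted, those without Sedentary replicate 2 (0.24, adjusted p = 0.0686), 3 (0.22, 0.0583) or 6 (0.28, 0.0513) and those without Exercise replicate 3 (0.24, 0.0631) or 6 (0.26, 0.0589). It was also lost when libraries were scaled by size alone (0.19, adjusted p = 0.108).

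Of the RXR genes, the minor form changed and the major one did not pass the test. Rxrb (gene ID 20182, chr17:34031812-34038399, plus strand) ranged from 17.9 to 21.4 CPM (median 19.5) in Sedentary livers and from 23.6 to 28.5 CPM (median 25.8) in Exercise livers. The groups did not overlap. Its mean rose from 19.7 ± 1.45 to 25.8 ± 1.63 CPM (SD, n = 6), with a log2 fold change of 0.39 (SE 0.064, edgeR adjusted p = 8.75e-05, exact permutation p = 0.00216). Rxra (gene ID 20181, chr2:27676440-27762957, plus strand) ranged from 274 to 384 CPM (median 329) in Sedentary livers and from 336 to 361 CPM (median 352) in Exercise livers. The Exercise values lay inside the Sedentary range, with coefficients of variation of 2.57% and 12.4%. Its log2 fold change was 0.067 (95% interval -0.094 to 0.23, edgeR adjusted p = 0.488). Rxra remained the major form, at a ratio to Rxrb of 8.81 ± 1.3 in Sedentary and 7.01 ± 0.479 in Exercise livers (FPKM, SD, n = 6). The log2 difference of the ratio was -0.32 (exact permutation p = 0.00433, adjusted 0.00649), and the ranges of 7.57 to 11.2 and 6.32 to 7.82 touched.

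**Figure D2:**
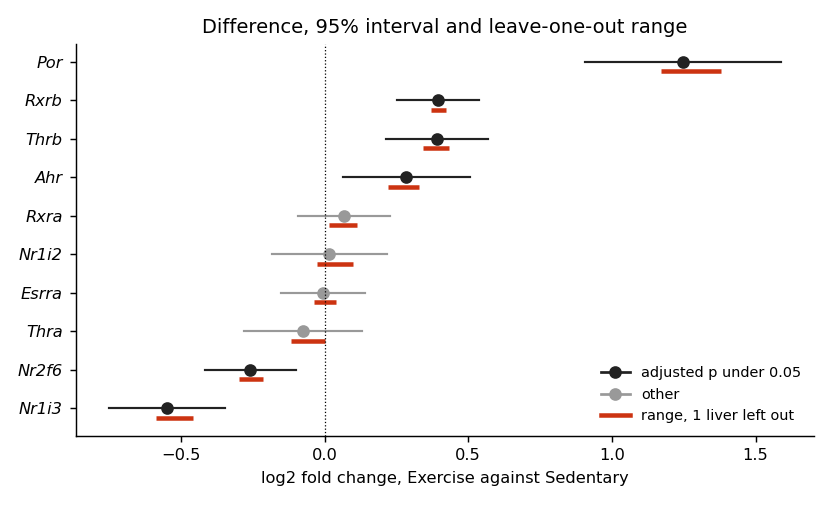
Log2 fold change of each gene, Exercise against Sedentary, with its 95% interval (line through the point) and, in red under it, the range over 12 fits, each with 1 liver omitted. Black marks adjusted p under 0.05. The interval of Por lies between 0.91 and 1.59 and that of Nr1i3 between -0.75 and -0.35, while those of Rxra, Nr1i2, Esrra and Thra cross 0.

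The thyroid hormone receptors also differed from each other. Thrb encodes TRβ, known as the main form of the liver, and Thra encodes TRα. In these Sedentary livers their FPKM values overlapped (4.51 ± 0.545 for Thrb and 4.28 ± 0.354 for Thra, SD, n = 6). Thrb (gene ID 21834, chr14:17660261-18038090, plus strand) ranged from 24.2 to 32.5 CPM (median 30.1) in Sedentary livers and from 33.6 to 42.5 CPM (median 38.0) in Exercise livers, with no overlap in CPM. On the FPKM scale the groups overlapped, with 3.79 to 5.26 in Sedentary and 4.87 to 6.08 in Exercise livers. The mean of Thrb rose from 29.0 ± 3.55 to 38.0 ± 3.12 CPM (SD, n = 6), with a log2 fold change of 0.39 (SE 0.079, edgeR adjusted p = 0.000687, exact permutation p = 0.00216). Thra (gene ID 21833, chr11:98740638-98769006, plus strand) ranged from 13.7 to 17.4 CPM (median 14.6) and from 10.4 to 16.2 CPM (median 14.5) in the same groups. The lowest value of Thra was that of Exercise replicate 3, and its log2 fold change was -0.075 (95% interval -0.28 to 0.13, edgeR adjusted p = 0.548).

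The FPKM ratio of Thrb to Thra was 1.06 ± 0.151 in Sedentary and 1.34 ± 0.271 in Exercise livers (SD, n = 6), with overlap. The log2 difference of 0.33 passed (exact permutation p = 0.0346, also after adjustment), but not without Sedentary replicate 2, 3, 4 or 6 or Exercise replicate 3 or 4, where the exact p ran up to 0.0736. On the CPM scale the log2 difference was 0.48 (exact permutation p = 0.00216). The scales part at both genes, whose FPKM per count differed between the groups. Its log2 shift, Exercise minus Sedentary, was 0.10 for Thra (SDs 0.047 and 0.042) and -0.051 for Thrb (SDs 0.030 and 0.021). The largest shift of any other member was -0.028 (Nr2f6). Counts of Thra and Thrb were divided by an estimate in 12 of 12 libraries. Nr1d1, the clock repressor REV-ERBα, overlaps the end of Thra by 263 exonic bases on the opposite strand. Nr1d1 was higher after exercise (6.67 ± 1.27 and 9.38 ± 1.18 CPM, log2 fold change 0.49, edgeR adjusted p = 0.0031), and its part in the counts of Thra was not tested.

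**Figure D3:**
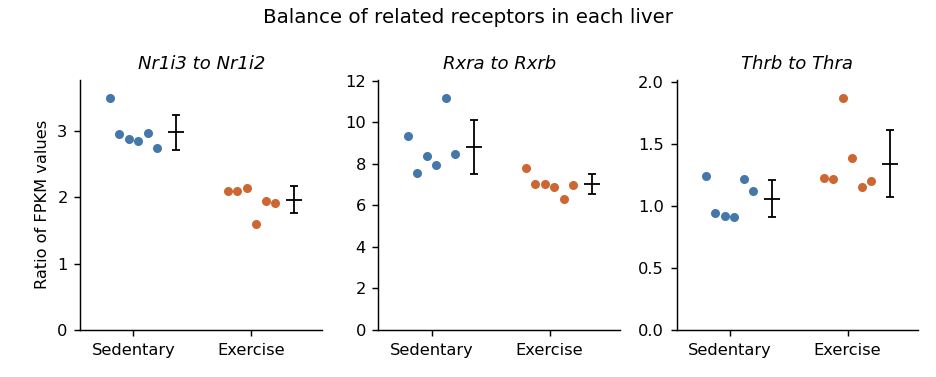
Ratio of FPKM values of related receptors within each liver (vertical axes start at 0), with points for single livers and the mean and SD beside them (n = 6). Nr1i3 to Nr1i2 runs from 2.74 to 3.49 in Sedentary and from 1.59 to 2.13 in Exercise livers, and the other 2 ratios overlap between the groups.

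Nr2f6, a repressor related to COUP-TFI and COUP-TFII, was lower after exercise. Nr2f6 (gene ID 13864, chr8:71374123-71381960, minus strand) ranged from 65.7 to 79.6 CPM (median 69.9) in Sedentary livers and from 51.2 to 67.4 CPM (median 60.0) in Exercise livers. The groups overlapped slightly. The means were 71.3 ± 5.22 and 59.6 ± 6.34 CPM (SD, n = 6), with a log2 fold change of -0.26 (SE 0.071, edgeR adjusted p = 0.00704, exact permutation p = 0.00433). Ocel1 lies over 1622 exonic bases of Nr2f6 on the opposite strand, and was itself lower after exercise (4.76 ± 0.679 and 3.75 ± 0.522 CPM, log2 fold change -0.34, edgeR adjusted p = 0.0291). Its part in the counts of Nr2f6 was not tested. Esrra (gene ID 26379, chr19:6910977-6921813, minus strand) ranged from 25.3 to 33.1 CPM (median 29.0) and from 27.2 to 31.5 CPM (median 28.1), with means of 28.8 ± 2.64 and 28.7 ± 1.70 CPM (SD, n = 6). Its log2 fold change was -0.0050 (95% interval -0.15 to 0.14, edgeR adjusted p = 0.961).

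The members did not share one order of livers within a group. Sedentary replicate 5 was highest in 4 members (Nr1i2, Nr1i3, Rxra and Por) and lowest in 3 (Rxrb, Esrra and Nr2f6). Sedentary replicate 2 was lowest in 4 (Nr1i3, Rxra, Por and Thrb). Exercise replicate 2 was highest in 5 (Nr1i3, Thra, Thrb, Esrra and Nr2f6), and Exercise replicate 1 was lowest in 4 (Rxrb, Ahr, Por and Esrra).

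For the genes these factors work with, 12 lists were written from general knowledge, with earlier results of these data known. They held 145 genes, of which 134 were tested. Of those, 55 changed, 22 higher and 33 lower, a share near the 42.4% of all genes tested. The median log2 fold change over all genes tested was -0.0028. Among targets of CAR, 8 of 23 (34.8%) changed, below that share, 3 higher and 5 lower, with a median of -0.026. Cyp2b10, the classic CAR-induced P450, ranged from 9.59 to 40.5 CPM in Sedentary livers and from 89.2 to 178 CPM in Exercise livers. The mean of Cyp2b10 rose from 19.7 ± 11.3 to 135 ± 38.4 CPM (SD, n = 6), with a log2 fold change of 2.78 (SE 0.36, edgeR adjusted p = 0.000142), in livers where Nr1i3 itself was lower. Gadd45b, a stress-response gene that CAR induces, was higher too (2.96 ± 1.24 and 7.03 ± 1.40 CPM, log2 fold change 1.25). Cyp2c55 (-0.88) and the glutathione transferase Gstm3 (-0.43) were lower, so that the list had no common direction. Aldh1a1, a retinaldehyde dehydrogenase, had a log2 fold change of -0.20 (edgeR adjusted p = 0.0308), which no longer passed without Sedentary replicate 1 or 5 or Exercise replicate 2, 3 or 4 (-0.24 to -0.17 over all 12 omissions). Counts of Cyp2b10, Gstm3, Aldh1a1, Cyp3a11 and Cyp3a13 were not whole in 12 of 12 libraries, so their share of reads is uncertain. Those of Cyp2c55 were whole in all of them.

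Among targets of PXR, 4 of 16 (25%, beside 42.4% of all genes) changed, 2 higher and 2 lower (median 0.015), and 8 listed genes are on both the CAR and the PXR list. Cyp3a11, the main drug-metabolizing P450 under PXR, had 5474 ± 578 CPM in Sedentary and 6018 ± 379.7 CPM in Exercise livers (SD, n = 6). Its log2 fold change of 0.14 did not pass (edgeR adjusted p = 0.149). Cyp3a13 was higher (186 ± 31.4 and 239.9 ± 40.0 CPM, log2 fold change 0.37, edgeR adjusted p = 0.0206). Cyp2b10 is on this list as well.

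Of 10 tested genes listed for the cytoplasmic complex of CAR and the EGFR-ERK arm, 3 changed (30%, beside 42.4% of all genes tested), 2 higher and 1 lower (median 0.038). With libraries scaled by size alone, 1 was higher and 2 were lower. Hsp90ab1, the constitutive form of heat shock protein 90, rose from 874 ± 90.3 to 1323 ± 148 CPM (SD, n = 6), with no overlap and a log2 fold change of 0.60 (edgeR adjusted p = 1.76e-05). Hsp90aa1, its inducible form, was higher by 0.45 (edgeR adjusted p = 0.0273), a call lost without Sedentary replicate 4, 5 or 6, with libraries scaled by size alone, with no filter beyond 1 count and on FPKM with either pseudocount (adjusted p up to 0.0998). Ppp2r1a, the scaffold subunit of the phosphatase PP2A, fell from 61.6 ± 2.93 to 48.3 ± 2.86 CPM, a log2 fold change of -0.35 (edgeR adjusted p = 6.44e-05). Mapk3, which encodes ERK1, had a log2 fold change of -0.11 (edgeR adjusted p = 0.118).

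The chaperones also hold AHR. Of 5 tested AHR partners, 3 changed (60%, beside 42.4% of all genes tested), all higher (median 0.32). With libraries scaled by size alone, 2 were higher and 1 was lower. Besides both forms of heat shock protein 90, the 3 partners that changed include the co-chaperone Ptges3 (63.8 ± 3.02 and 79.5 ± 5.78 CPM, log2 fold change 0.32, edgeR adjusted p = 0.000253). Arnt, which pairs with AHR on DNA, had a log2 fold change of -0.14 (edgeR adjusted p = 0.0692). Of the AHR targets, with a median of 0.024, 0 of 10 changed by edgeR, and 0 had an unadjusted p under 0.05. DESeq2 and limma-voom also called 0 of them. Cyp1a2, the abundant target in liver, ranged from 394 to 695 CPM in Sedentary and from 345 to 552 CPM in Exercise livers, with a log2 fold change of -0.25 (edgeR adjusted p = 0.189). Cyp1a1 was at 3.60 ± 1.52 and 3.05 ± 1.41 CPM (edgeR adjusted p = 0.616). The adjusted p of Cyp1b1, Nqo1 and Xdh were 0.213, 0.111 and 0.119 in edgeR's test.

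**Figure D4:**
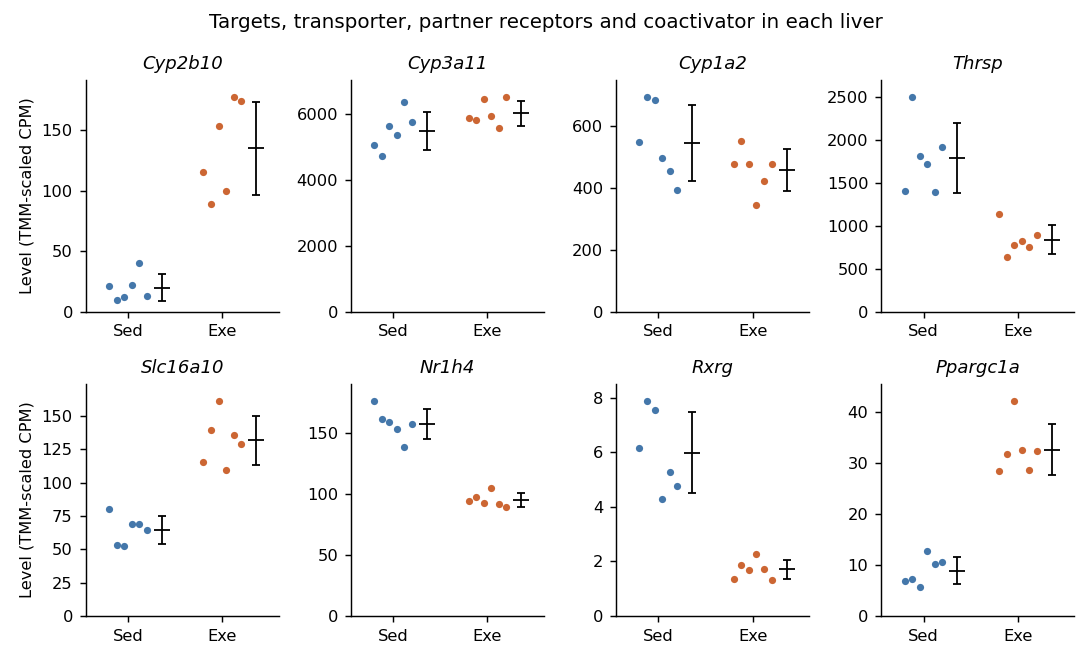
Level in each liver, in TMM-scaled CPM (vertical axes start at 0), of genes that work with the receptors, for Sedentary (Sed, blue) and Exercise (Exe, orange), with the mean and SD beside the points (n = 6). Cyp2b10, Slc16a10 and Ppargc1a are higher and Thrsp, Nr1h4 and Rxrg lower in every Exercise liver than in any Sedentary liver, while Cyp3a11 and Cyp1a2 overlap.

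Around RXR, 7 of 10 partner receptors changed (70%, beside 42.4% of all genes tested). Of these, 3 were higher and 4 lower (median -0.023), or 2 higher and 5 lower with libraries scaled by size alone. Nr1h4, which encodes the bile acid receptor FXR, ranged from 138 to 176 CPM in Sedentary and from 89.5 to 105 CPM in Exercise livers. Its log2 fold change was -0.73 (SE 0.061, edgeR adjusted p = 1.03e-07). Pparg, low in both groups, fell from 6.31 ± 1.32 to 3.49 ± 0.378 CPM (log2 fold change -0.85), and the retinoic acid receptor Rarb fell from 3.84 ± 1.29 to 2.06 ± 0.341 CPM (-0.90). Ppara, the fasting-responsive receptor of fatty acid oxidation, rose from 139.7 ± 14.1 to 187 ± 35.4 CPM (log2 fold change 0.42, edgeR adjusted p = 0.00414). The early-response receptor Nr4a1 rose from 0.728 ± 0.193 to 2.71 ± 0.735 CPM (1.88).

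Of the sister genes of the members, 2 of 5 changed (40%, beside 42.4% of all genes tested), both lower (median -0.41). Rxrg, the third RXR gene, ranged from 4.29 to 7.87 CPM in Sedentary and from 1.33 to 2.26 CPM in Exercise livers, with a log2 fold change of -1.81 (SE 0.17, edgeR adjusted p = 4.65e-07). Rxrb was thus higher and Rxrg lower in every Exercise liver than in any Sedentary liver. Nr2f2, which encodes COUP-TFII, fell from 31.6 ± 2.67 to 21.7 ± 2.49 CPM without overlap (log2 fold change -0.54, edgeR adjusted p = 2.66e-05), as Nr2f6 did by -0.26. The ERR genes Esrrg (-0.41, edgeR adjusted p = 0.111) and Esrrb (0.13, 0.751) did not pass.

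Coregulators that receptors recruit changed in 10 of 18 cases (55.6%, beside 42.4% of all genes tested), 6 higher and 4 lower (median 0.12). The coactivator Ppargc1a rose from 8.89 ± 2.68 to 32.6 ± 5.01 CPM (SD, n = 6), with a log2 fold change of 1.88 (SE 0.18, edgeR adjusted p = 5.09e-06), and its relative Ppargc1b from 5.55 ± 1.22 to 14.3 ± 2.92 CPM (1.37). Med1, the mediator subunit that nuclear receptors contact, was higher by 0.60 (edgeR adjusted p = 1.35e-06) and the acetyltransferase Ep300 by 0.47 (4.79e-05). Nr0b2, the corepressor SHP, ranged from 11.2 to 62.9 CPM in Sedentary livers, and its log2 fold change of 0.52 did not pass (edgeR adjusted p = 0.31). Without Sedentary replicate 2 that of Nr0b2 was 0.89, at the end of a range from 0.35 with 1 liver omitted, and the lowest adjusted p was 0.0524.

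Genes that bring thyroid hormone to its receptors moved in both directions, 1 higher and 2 lower of 6 tested (median -0.21). Their share of changed genes was 50%, beside 42.4% of all genes tested. The transporter Slc16a10 (MCT10) ranged from 52.7 to 80.3 CPM in Sedentary and from 109.9 to 161 CPM in Exercise livers, with a log2 fold change of 1.03 (SE 0.11, edgeR adjusted p = 5.35e-06). Dio1, the deiodinase of liver, had a log2 fold change of -0.40 (edgeR adjusted p = 0.0449), and this call failed in 10 of 12 fits with a liver omitted (-0.51 to -0.31). Crym, which binds the hormone in the cytosol, had -0.25 (edgeR adjusted p = 0.334).

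Among genes known as targets of thyroid hormone receptors, 13 of 15 changed (86.7%, beside 42.4% of all genes tested). Of these, 4 were higher and 9 lower, and the median of the list was -0.46. With 1 liver omitted, 10 to 12 genes of the list changed. Thrsp (Spot 14), a lipogenic gene that the hormone induces, ranged from 1399 to 2506 CPM in Sedentary and from 635 to 1134 CPM in Exercise livers, a log2 fold change of -1.10 (edgeR adjusted p = 0.00013). Srebf1, the lipogenic regulator, fell from 499 ± 86.6 to 130.4 ± 25.2 CPM (-1.94). G6pc, the last enzyme of gluconeogenesis, rose from 487 ± 87.5 to 853 ± 58.3 CPM (0.81, edgeR adjusted p = 8.81e-06). As background, insulin and feeding are also known to act on several of these genes.

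Of 19 tested ERRα targets, 4 changed (21.1%, beside 42.4% of all genes tested), all lower, and the median was -0.014. Cs, citrate synthase, fell from 163 ± 22 to 103 ± 9.25 CPM (log2 fold change -0.66, edgeR adjusted p = 7.94e-06) and Idh3a, a subunit of isocitrate dehydrogenase, from 42.9 ± 4.53 to 29.4 ± 3.14 CPM (-0.55). Vegfa fell by 0.25 on the log2 scale (edgeR adjusted p = 0.00342). Idh3g had -0.16 (edgeR adjusted p = 0.0372), a call that failed in 7 of 12 fits with a liver omitted. Pdk4 was at 7.98 ± 2.33 and 8.81 ± 1.83 CPM (edgeR adjusted p = 0.582).

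The genes listed around POR and cytochrome b5 had no common direction. Of 8 tested, 4 changed (50%, beside 42.4% of all genes tested). Of these, 1 was higher and 3 lower (median -0.097), or 0 higher and 3 lower with libraries scaled by size alone. The outer mitochondrial cytochrome b5 gene Cyb5b fell from 418 ± 42.7 to 294 ± 23.5 CPM (log2 fold change -0.50, edgeR adjusted p = 3.12e-05) and its reductase Cyb5r3 by 0.24 on the log2 scale (edgeR adjusted p = 0.00917). Cyb5a, the microsomal cytochrome b5, was at 1028 ± 99.3 and 1063 ± 65.1 CPM (edgeR adjusted p = 0.618). Heme oxygenase 2 (Hmox2) was higher by 0.24 (edgeR adjusted p = 0.00464). Cyp51, a P450 of cholesterol synthesis, had -0.50 (edgeR adjusted p = 0.034), a call that failed in 7 of 12 fits with a liver omitted.

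**Figure D5:**
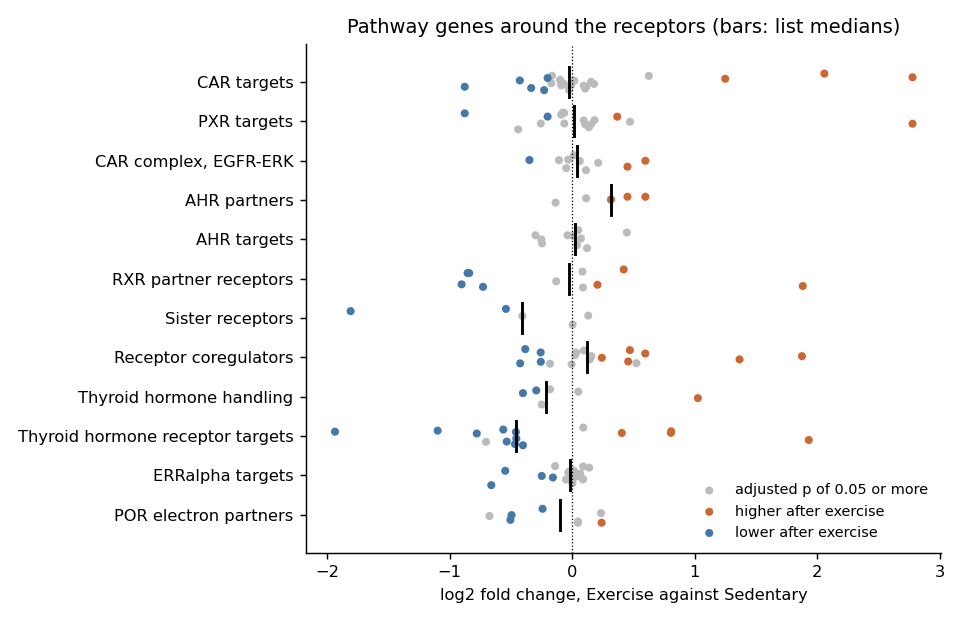
Log2 fold change, Exercise against Sedentary, of each tested gene on the 12 lists (points, spread vertically for legibility), colored by whether it passed at an adjusted p under 0.05, with the median of each list as a black bar. Cyp2b10, on the CAR and PXR lists, lies at 2.78. No AHR target is colored, and the median of the thyroid hormone receptor targets is at -0.46.

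Over the 12 livers, the genes with the profile most like that of Por were Sdc4, N4bp2l1 and Upp2, with root mean square differences of 0.136, 0.136 and 0.147 on the log2 scale after each gene was centered on its mean, out of 7090 genes with at least 10 CPM. The genes nearest to Rxrb were Polr1c (0.069), Fbrs (0.076) and Lrch4 (0.080). For Nr1i3 they were Zfp512b (0.087), Acsm5 (0.109) and Dph1 (0.121), and for Thrb Wdfy3 (0.053), Tnks2 (0.071) and Zfyve1 (0.086). This is a description, as the group difference is part of each profile.

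The label of the tissue was checked against markers. The 8 hepatocyte markers in the table summed to 119332 to 161031 CPM in Sedentary and 143851 to 166490.4 CPM in Exercise livers, far above those of any other cell type. Of these, Alb (log2 fold change 0.24, edgeR adjusted p = 0.0253) and Hnf4a (0.59, 4.97e-06) were higher. With libraries scaled by size alone, 1 of all 8 markers was higher and 1 lower, and which these were is not given. Kupffer cell markers (63.3 to 108 and 74.9 to 116 CPM), cholangiocyte markers (8.07 to 9.53 and 7.77 to 10.2 CPM) and lymphocyte and blood markers (313 to 491 and 323 to 382 CPM) overlapped in sum, and 0 of 6, 0 of 4 and 0 of 5 tested changed by edgeR, with 0 at an unadjusted p under 0.05 and 0 called by DESeq2 or limma-voom in each list. Endothelial markers summed to 105 to 141 and 118 to 174 CPM, and 3 of 5 changed (Lyve1 1.18 and Pecam1 0.49 higher, Kdr -0.19). Stellate cell markers summed to 139 to 185 and 130.1 to 191 CPM, and 2 of 5 (Lrat -0.59 and Des -0.40) were lower. Of all genes tested, 42.4% changed. The part of these cells in the results above was not tested.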

How the data were processed

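RNA-Seq of 12 mouse livers was used, 6 per group by the sample labels. The authors deposited estimated counts for 17432 genes in each library, not scaled between libraries, of which 31.3% were not whole (tolerance 1e-06). The authors also deposited FPKM values, scaled for transcript length and depth. The submitters' processing notes name Bowtie2 2.3.4.3, RSEM 1.3.1 and mm10, and the strand setting is not given in the sources used here. The labels name no batch, and 0 of 66 library pairs were identical.

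Counts were rounded, scaled by TMM, filtered with filterByExpr (10 counts) and fitted by group in edgeR 4.0.16 under R 4.3.3, using its robust quasi-likelihood F test at a Benjamini-Hochberg threshold of 0.05. Totals were 18745379 to 19324461 counts. The common BCV of the fit, a measure of the spread between mice, was 11.3%. It was not compared with counting error for single members. Single members and ratios were also compared by exact permutation of log2(CPM + 0.5) or of log2 FPKM ratios. Intervals use the SE and 10 residual degrees of freedom. The test was tried on simulated data.

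The members and lists were chosen with earlier results of these data known. Named are all members, genes overlapping them, up to 4 genes of smallest p per list, 13 classic genes and the 3 nearest profiles of 4 members. Some genes that this rule names are not reported here. Marker genes that passed were named after their values were seen. Alternatives were other scalings and filters, DESeq2 1.42.0, limma-voom and limma-trend on FPKM (limma 3.58.1), the replicate number as a block, each liver left out, a threshold of 0.01 and, chosen after seeing the data, Exercise replicates 1 and 3 left out together. Positions are from GENCODE M21 (GRCm38).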

Additional observations from a re-analysis of the deposited data

Results flagged for a closer look

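In 5 of 144 groups of livers checked, 1 liver stood far from the other 5, where chance gives about 1 in 20 groups (7.2). None of the 5 was among the 10 genes described above, and each was Exercise replicate 3. Ppargc1a was at 42.1 CPM there, against 32.5 CPM in the next Exercise liver. Ppara was at 256 CPM (next 186), Dio1 at 156 CPM (next 114) and Dph1 at 12.7 CPM (next 11.2). G6pc was at 740.3 CPM, below the next Exercise liver at 852. The same liver was highest among Exercise livers in Rxra, Ahr and Por and lowest in Thra and Nr2f6.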

How the results depend on the processing

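Of the 10 genes, Por, Nr1i3, Rxrb, Thrb and Nr2f6 kept direction and call under all alternatives run, and 5 or 6 genes changed in each. Over the alternatives other than 1 liver left out, the log2 fold change of Thrb ran from 0.20 to 0.40, with an adjusted p up to 0.0297. Ahr was lost under library size scaling (0.19), FPKM with a pseudocount of 0.1 (0.19) or 1 (0.17), the replicate block (0.29), and without Exercise replicates 1 and 3 (0.27), with an adjusted p up to 0.137. Among genes that did not pass, Nr1i2, Rxra and Cyb5a changed sign with the scaling. Nr1i2 was -0.0036 with upper quartile scaling, -0.074 with library size, and -0.057 and -0.056 on FPKM. Rxra was -0.026, -0.020 and -0.020, and Cyb5a -0.048, -0.045 and -0.045, under the last 3. Esrra was 0.031 without Exercise replicates 1 and 3. With 1 liver left out, Nr1i2 ran from -0.025 to 0.098, Esrra from -0.036 to 0.038, Thra from -0.12 to 0.0029, Esrrb from -0.0040 to 0.32, Nr1i3 from -0.59 to -0.46, Rxrb from 0.37 to 0.42, Thrb from 0.34 to 0.43 and Nr2f6 from -0.30 to -0.21.

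Counts of list genes changed by over 1.5 times in a few cases. AHR targets went from 0 to 1 under library size scaling, on FPKM with either pseudocount, without Exercise replicates 1 and 3, and with 1 liver left out (0 to 1, without Sedentary replicate 1 or 5). CAR targets went from 8 to 5 and PXR targets from 4 to 2 at an adjusted p under 0.01, and CAR targets ran from 5 to 9 with 1 liver left out (5 without Exercise replicate 2). Genes listed around POR and cytochrome b5 went from 4 to 2 without Exercise replicates 1 and 3. The log2 ratio of Thrb to Thra ran from 0.23 to 0.38 with 1 liver left out. Over all genes, 2603 were higher and 2626 lower, but 1767 and 3735 with library size scaling and 1703 and 3738 on FPKM with a pseudocount of 0.1. The median log2 fold change of all genes was -0.098 with library size scaling and -0.093 on FPKM. The cause was not tested.

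The values below gave little sign that the replicate numbers pair the livers, and they cannot show that pairing was absent. Same-numbered livers deviated together with correlations from -0.099 to 0.16, and 2 of 6 correlated best with their own number. With the replicate number as a block, 5 members and 4956 genes changed, against 6 and 5229.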
